A study of Homo sapiens with 15 samples.

Results

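Described here is how the effect of an amino-rich coating on the transcripts of osteoblast-like cells differed between 24 h and 4 h of culture. For each transcript cluster of the Clariom S array, which is a set of probes for 1 gene, the difference between Ti-TMS-PEI and Ti-Ref at 4 h was subtracted from the difference between Ti-TMS-PEI and Ti-Ref at 24 h, over all 15 arrays of the series. The cells were human MG-63 cells, an established osteosarcoma line. Ti-TMS-PEI is titanium coated with trimethoxysilylpropyl modified poly(ethyleneimine), a polymer rich in amino groups, and Ti-Ref is the same titanium without a coating. At 24 h there were 4 arrays of Ti-TMS-PEI and 3 of Ti-Ref, and at 4 h there were 4 of each, marked with the letters A to D. A single cell line was used, and per the study's methods 1 Ti-Ref array of 24 h was left out for its quality. The table held 21448 transcript clusters, of which 17709 carried 1 gene symbol (17687 genes) and 3739 are not named here. All values are log2 signals. Array medians were 6.71 to 6.79 at 24 h and 5.79 to 5.86 at 4 h, and the sources used here do not say whether both times were normalised together, so that no level of 24 h was set against a level of 4 h. A positive interaction means that the difference of Ti-TMS-PEI against Ti-Ref was higher, or less negative, at 24 h than at 4 h.

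Cells that attach to a new surface signal through integrins and growth factor receptors to the ERK kinases within minutes. This switches on immediate early genes, and with them the phosphatases and Sprouty proteins that turn the pathway down again, so that many such transcripts are known to rise and fall within hours. Genes for cell division are known to follow later, since they depend on proteins made in the first wave or on the cell's passage through its cycle.

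The interaction was called at a Benjamini-Hochberg adjusted p under 0.05 in limma and a difference of more than 1.5-fold between the effects. It was called for 1026 transcript clusters (4.78%), of which 557 (2.6%) were higher at 24 h than at 4 h and 469 (2.19%) were lower. At an unadjusted p under 0.05 there were 4026. The difference between the effects was over 2-fold for 410 of those called and over 4-fold for 36, of which 26 were higher at 24 h. Over all transcript clusters the median interaction was 0.0067 and its median size was 0.22, as large as the median standard error of 0.22. The split into higher and lower calls, 54.3% higher here, moved to 35.6% when each array was centred on its median and to 36.8% when its interquartile range was scaled as well, and these settings shifted the median of all interactions to -0.09 and -0.08.

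In the same fit the coating effect was called for 1424 transcript clusters at 24 h (6.64%) and for 62 at 4 h (0.289%), with 22 called at both times. All 4 groups share 1 estimate of the spread in this fit, though the median replicate SD was 0.22 at 4 h and 0.179 at 24 h. With array weights set per time, 24 transcript clusters were called at 4 h and 1506 at 24 h. With each time fitted alone, 9 transcript clusters were called at 4 h and 1319 at 24 h. Genes were sorted by the times at which the coating effect was called. Of the 1026 with a called interaction, 760 were late (called at 24 h only), 18 were early transient (called at 4 h only), 5 were strengthened (called at both times in 1 direction, larger at 24 h), 3 were reversed (called at both times in opposite directions), none was weakened, and 240 were called at neither time. A further 14 were sustained, which here means called at both times in 1 direction with no called interaction, and this does not show that both effects were alike. The coating effects had opposite signs at the 2 times for 729 of the 1026 called (71.1%), against 48% of all transcript clusters. The call itself favours opposite signs, since they make the difference larger. All 240 called at neither time had opposite signs, with a median effect size of 0.295 at 4 h and 0.473 at 24 h. The arrays of Ti-TMS-PEI and Ti-Ref did not overlap at either time for 409 transcript clusters (1.91%), of which 267 lay apart in the same direction and 142 in opposite directions.

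**Figure D1:**
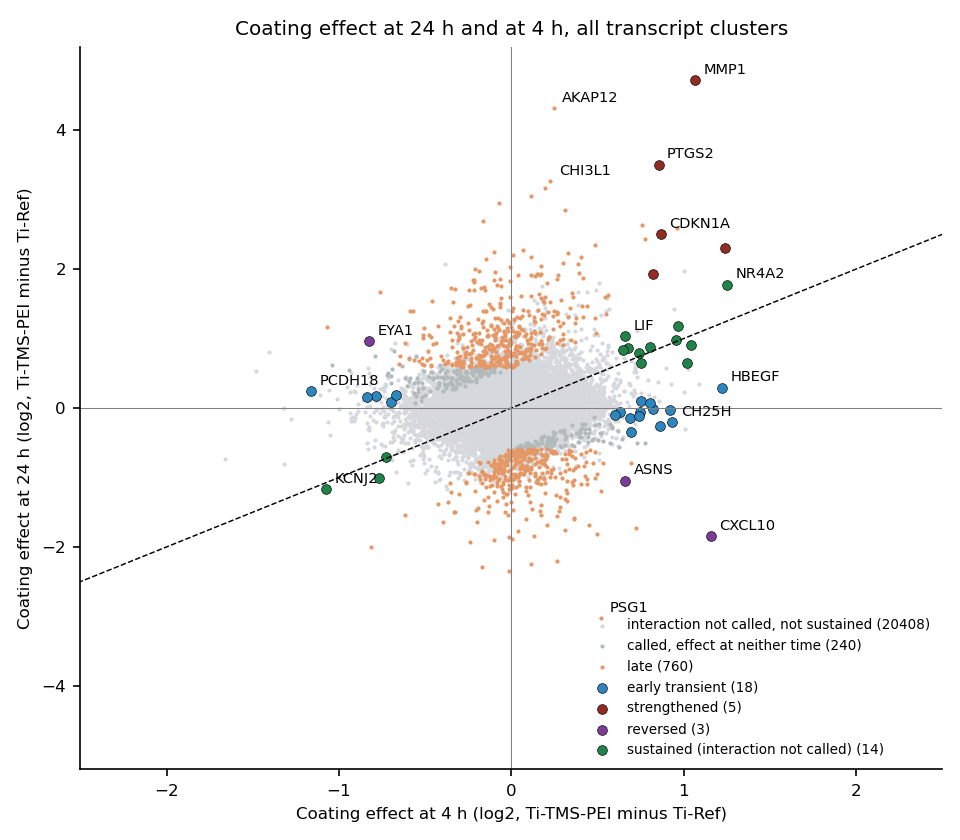
Coating effect at 24 h (log2, Ti-TMS-PEI minus Ti-Ref, vertical axis) against the coating effect at 4 h (log2, horizontal axis), with 1 point per transcript cluster coloured by its time class and a dashed line where both effects are equal. The 760 late transcript clusters spread along the vertical axis, 518 of them with an effect under 0.2 either way at 4 h, and the 3 reversed genes CXCL10, ASNS and EYA1 lie in the quadrants of opposite sign.

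Near the threshold, TRIP13, a mitotic checkpoint gene (-0.95, adjusted p = 0.0498), and SPRY2 (-0.66, adjusted p = 0.0498) lay just inside, and MICAL2 (-0.64, adjusted p = 0.05008) and PTPN2 (-0.60, adjusted p = 0.05008) just outside.

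Of the transcript clusters with a called interaction, 18, of which 15 are named, were called at 4 h and not at 24 h, and 13 of these were higher on Ti-TMS-PEI at 4 h. They included genes of growth factor signalling and its feedback: HBEGF, a ligand of the EGF receptor, FOSL1, a subunit of the transcription factor AP-1, and SPRY2, an inhibitor of receptor tyrosine kinase signalling. CH25H, the enzyme that makes 25-hydroxycholesterol, had the largest fall in its coating effect. At 24 h it lay at 6.09, 6.55, 6.30 and 6.28 on Ti-TMS-PEI, against 6.69, 6.31 and 6.52 on Ti-Ref. At 4 h it lay at 6.60, 7.11, 6.85 and 7.13 on Ti-TMS-PEI, against 5.91, 6.07, 5.82 and 6.15 on Ti-Ref. The surfaces overlapped at 24 h and were apart in all arrays at 4 h, and the interaction was -1.14 (SE 0.204, adjusted p = 0.005089). Genes picked from each class had to have arrays that did not overlap at the time or times of the call. For them, lying apart at those times was fixed by this choice and is no separate support.

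FOSL1 was at 13.55, 13.81, 14.04 and 13.81 on Ti-TMS-PEI at 24 h, against 13.98, 14.23 and 14.24 on Ti-Ref. At 4 h it was at 14.33, 14.73, 14.53 and 14.77 on Ti-TMS-PEI, against 13.84, 13.97, 13.91 and 13.86 on Ti-Ref. Its coating effect was thus -0.35 at 24 h, which did not pass the test, and 0.70 at 4 h (interaction -1.04, SE 0.179, adjusted p = 0.003938). HBEGF was at 10.27, 10.75, 10.33 and 10.19 on Ti-TMS-PEI at 24 h, against 10.09, 10.24 and 9.94 on Ti-Ref. At 4 h it was at 10.89, 11.16, 11.19 and 11.57 on Ti-TMS-PEI, against 9.74, 10.06, 9.97 and 10.15 on Ti-Ref, a 2.33-fold difference. The 4 h groups of HBEGF lay apart by more than their spread, while those of 24 h overlapped. The interaction of HBEGF (-0.93, SE 0.225, adjusted p = 0.02549) was lost without Ti-Ref 4 h A, Ti-Ref 24 h A, Ti-Ref 24 h B or Ti-TMS-PEI 24 h A, with adjusted p up to 0.07472.

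PDE4B, a phosphodiesterase that degrades cAMP (-0.82, adjusted p = 0.01347), MCOLN2, a cation channel of endosomes (-0.80, adjusted p = 0.005598), and ADAMTS3, a procollagen protease (-0.70, adjusted p = 0.01315), had the same course, with coating effects of 0.61 to 0.74 at 4 h and of -0.14 to -0.06 at 24 h. Others in this class were BCL7A, a subunit of a chromatin remodelling complex (-0.84), PRICKLE1, of planar cell polarity (-0.95), SEMA4B, a semaphorin (-0.73), and FRMD4A (-0.85). Each of these 4 calls was lost when 1 of several arrays was left out (adjusted p up to 0.07048 for BCL7A, 0.08564 for PRICKLE1, 0.0925 for SEMA4B and 0.07016 for FRMD4A).

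Only 5 early transient transcript clusters were lower on Ti-TMS-PEI at 4 h. PCDH18, a protocadherin, led them. It lay at 11.35, 11.18, 11.24 and 11.21 on Ti-TMS-PEI at 24 h, against 10.85, 10.99 and 11.16 on Ti-Ref. At 4 h it lay at 9.85, 9.95, 10.03 and 10.01 on Ti-TMS-PEI, against 11.07, 10.84, 11.36 and 11.22 on Ti-Ref. PCDH18 was thus 2.24-fold lower in all arrays on Ti-TMS-PEI at 4 h and slightly above Ti-Ref at 24 h, where the effect of 0.24 did not pass the test (interaction 1.41, SE 0.166, adjusted p = 0.0002743). The same course was seen for RNPC3, a component of the minor spliceosome (0.78, adjusted p = 0.01324), VPS13B, a lipid transfer protein of the Golgi (0.85), and SPIN2B (1.0), but the call of VPS13B was lost without Ti-Ref 24 h B or C (adjusted p up to 0.05476) and that of SPIN2B without Ti-Ref 24 h A or Ti-TMS-PEI 24 h A (adjusted p up to 0.07719). The call of RNPC3 was lost with the letters A to D as a replicate block within each time (adjusted p = 0.05856). Membership of this class rests on the calls at 4 h. With each time fitted alone it held 3 genes, PCDH18, HBEGF and BCL7A, and with 1 array left out it held between 5 (without Ti-TMS-PEI 4 h B) and 19.

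**Figure D2:**
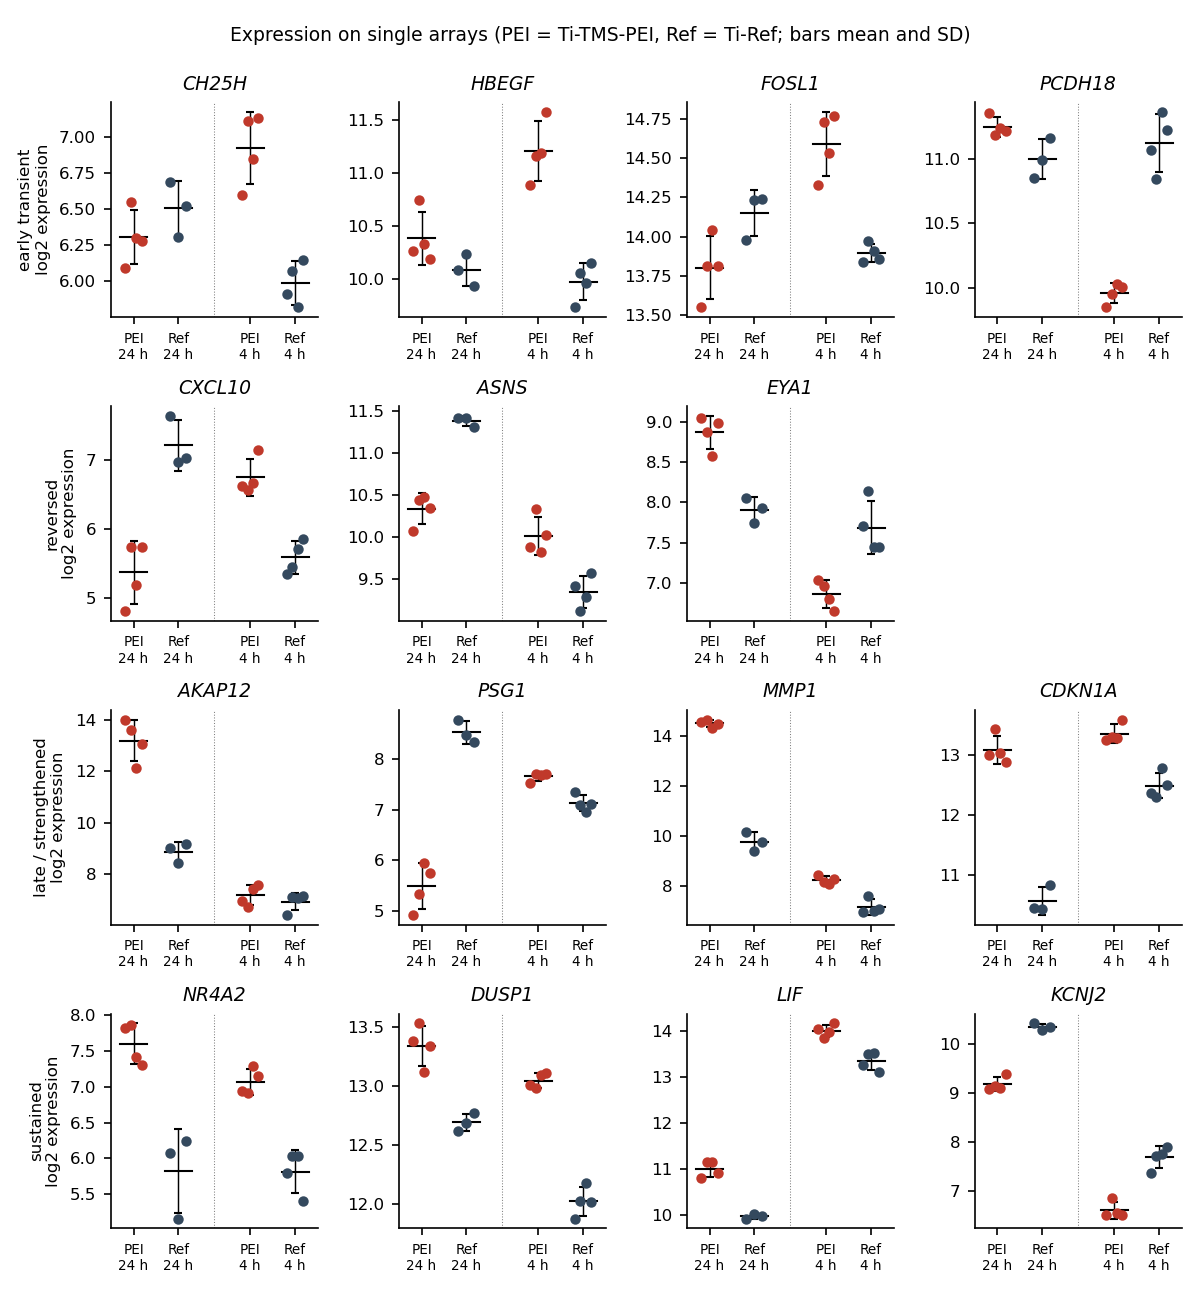
Log2 signal of each array (points) for 15 genes of the time classes, with Ti-TMS-PEI (red) left of Ti-Ref (dark blue) within each time and bars at each group's mean and SD (n = 4, or 3 for Ti-Ref at 24 h). Each panel has its own axis, which does not start at 0, and levels are to be read within a time only. For CH25H the surfaces lie apart at 4 h only, for AKAP12 at 24 h only, and for KCNJ2 and DUSP1 at both times in 1 direction. For CXCL10, PSG1 and, by a narrow margin at 24 h, PCDH18 they change places without overlap.

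CXCL10, ASNS and EYA1 had called coating effects in opposite directions at the 2 times. CXCL10, a chemokine that draws T cells and is induced by interferons, was at 4.81, 5.74, 5.19 and 5.74 on Ti-TMS-PEI at 24 h, against 7.64, 6.97 and 7.03 on Ti-Ref. At 4 h it was at 6.62, 6.56, 6.66 and 7.15 on Ti-TMS-PEI, against 5.34, 5.45, 5.71 and 5.86 on Ti-Ref. The surfaces changed places without overlap at either time: CXCL10 was 3.59-fold lower on Ti-TMS-PEI at 24 h (adjusted p = 0.0001148) and 2.23-fold higher at 4 h (adjusted p = 0.03853), with an interaction of -3.00 (SE 0.319, adjusted p = 0.0001589). ASNS, which makes asparagine and is a target of the amino acid stress factor ATF4, was at 10.07, 10.44, 10.48 and 10.35 on Ti-TMS-PEI at 24 h, against 11.42, 11.41 and 11.31 on Ti-Ref. At 4 h ASNS was at 9.88, 10.33, 9.82 and 10.02 on Ti-TMS-PEI, against 9.42, 9.12, 9.29 and 9.57 on Ti-Ref. Its groups too did not overlap, and the interaction was -1.71 (adjusted p = 0.0002232). EYA1, a transcriptional co-activator with phosphatase activity, ran the other way, at 9.04, 8.87, 8.58 and 8.98 on Ti-TMS-PEI at 24 h, against 8.05, 7.74 and 7.93 on Ti-Ref. At 4 h EYA1 was at 7.03, 6.96, 6.8 and 6.65 on Ti-TMS-PEI, against 7.71, 8.14, 7.45 and 7.44 on Ti-Ref, again without overlap (interaction 1.79). The interactions of these 3 genes were called with every array left out, but their calls at 4 h (adjusted p of 0.03853 to 0.04386) were less firm, and none of the 3 was in the class without Ti-Ref 24 h C, Ti-Ref 4 h A, Ti-Ref 4 h B, Ti-TMS-PEI 4 h B, Ti-TMS-PEI 4 h C or Ti-TMS-PEI 4 h D.

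When an unadjusted p under 0.05 was asked at each time, 17 transcript clusters were reversed, 13 of them higher on Ti-TMS-PEI at 24 h and lower at 4 h. RFTN2, a lipid raft protein (2.43), BOC, a co-receptor of hedgehog signalling (1.98), and the non-coding LINC00260 (1.66) ran this way. DLC1 (-2.45, adjusted p = 0.0002833), and PSMC3IP, a recombination factor (-1.49), ran the other way. DLC1 was at 6.67, 6.71, 7.02 and 7.12 on Ti-TMS-PEI at 24 h, against 8.51, 8.69 and 8.61 on Ti-Ref, and at 8.48, 8.62, 9.03 and 9.47 on Ti-TMS-PEI at 4 h, against 7.91, 8.23, 8.58 and 7.99 on Ti-Ref, where 1 array of Ti-Ref overlapped.

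The promoters of CXCL10 and ASNS are shown because these genes carried the reversal and hold short sequences known from their regulation. The windows are the bases just before the first RefSeq start of each gene in GRCh38.p14, 5′ to 3′ on the gene's strand and cut to begin 20 bases before the first match. Capitals mark GAAANNGAAA, the core of the interferon response element, in CXCL10 and TGATGNAA, the core of the element bound by ATF4 and C/EBP proteins, in ASNS. Both strands of the 250 bases before the start were searched.
CXCL10, chr4:76023498-76023738, minus strand: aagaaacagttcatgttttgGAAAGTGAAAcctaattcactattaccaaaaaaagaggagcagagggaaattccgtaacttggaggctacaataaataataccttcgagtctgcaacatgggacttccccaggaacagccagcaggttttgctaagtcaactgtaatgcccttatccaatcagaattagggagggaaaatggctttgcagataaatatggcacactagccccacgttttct
ASNS, chr7:97872409-97872496, minus strand: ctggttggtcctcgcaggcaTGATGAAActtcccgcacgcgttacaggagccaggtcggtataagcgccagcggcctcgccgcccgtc
GAAANNGAAA stood in 2.65% of the 14250 windows matched to genes of the array and TGATGNAA in 2.2%. A match is a description of these letters and not a site of binding.

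MMP1, PTGS2, CDKN1A, VGLL4 and LURAP1L were higher on Ti-TMS-PEI at both times and more so at 24 h. MMP1, the interstitial collagenase, was at 14.55, 14.64, 14.32 and 14.46 on Ti-TMS-PEI at 24 h, against 10.17, 9.41 and 9.74 on Ti-Ref. At 4 h MMP1 was at 8.43, 8.14, 8.06 and 8.26 on Ti-TMS-PEI, against 6.94, 7.61, 7.0 and 7.07 on Ti-Ref. This was a 26.3-fold difference at 24 h and a 2.1-fold difference at 4 h without overlap at either time (interaction 3.65, SE 0.247, adjusted p = 3.816e-06). PTGS2, the inducible cyclooxygenase that starts prostaglandin synthesis, was at 13.28, 13.43, 13.18 and 13.06 on Ti-TMS-PEI at 24 h, against 9.85, 9.56 and 9.78 on Ti-Ref. At 4 h it was at 12.01, 12.26, 12.78 and 12.48 on Ti-TMS-PEI, against 11.27, 11.49, 11.68 and 11.67 on Ti-Ref. The groups of PTGS2 lay apart at both times, by 11.4-fold at 24 h and 1.81-fold at 4 h (interaction 2.65, adjusted p = 2.853e-05).

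CDKN1A, the cell cycle inhibitor p21, was at 13.00, 13.42, 13.03 and 12.88 on Ti-TMS-PEI at 24 h, against 10.45, 10.43 and 10.84 on Ti-Ref, and at 13.25, 13.30, 13.27 and 13.58 on Ti-TMS-PEI at 4 h, against 12.37, 12.30, 12.77 and 12.49 on Ti-Ref. Its difference was 5.69-fold at 24 h and 1.82-fold at 4 h (interaction 1.64, adjusted p = 0.000513). VGLL4, a cofactor that competes with YAP for TEAD factors, differed by 3.82-fold at 24 h and 1.77-fold at 4 h (1.11, adjusted p = 0.01091), and LURAP1L by 4.95-fold and 2.36-fold at these times (1.07, adjusted p = 0.01399). With 1 array left out this class held between 1 and 6 genes, namely LURAP1L alone without Ti-TMS-PEI 4 h D, LURAP1L and MMP1 without Ti-Ref 4 h A or Ti-TMS-PEI 4 h B, and these with CDKN1A without Ti-TMS-PEI 4 h C.

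The late genes made up 74.1% of the called interactions, 414 of them higher and 346 lower on Ti-TMS-PEI at 24 h. For 759 of the 760 the surfaces did not overlap at 24 h, but the class is defined by a call at 24 h, so this is no separate support. The median size of their coating effect was 0.94 at 24 h and 0.13 at 4 h, where that of all transcript clusters was also 0.13, and 518 of them had an effect under 0.2 either way at 4 h. The sign at 4 h was opposite to that at 24 h for 471 (62%), but only 75 had an opposite effect at an unadjusted p under 0.05 at 4 h and 35 an effect in the same direction.

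AKAP12, a scaffold of protein kinases A and C, had the largest interaction among named late genes. It was at 13.98, 13.59, 12.11 and 13.06 on Ti-TMS-PEI at 24 h, against 9.03, 8.42 and 9.15 on Ti-Ref, and at 6.97, 6.73, 7.43 and 7.59 on Ti-TMS-PEI at 4 h, against 6.42, 7.11, 7.07 and 7.13 on Ti-Ref. The groups overlapped at 4 h and differed by 20-fold at 24 h (interaction 4.07, SE 0.48, adjusted p = 0.0002743). CHI3L1, a secreted glycoprotein of connective tissue (3.04), KLHL41, a kelch protein known from muscle (2.97), RASL12, a Ras-like protein (2.94), CCL26, the chemokine eotaxin-3 (2.85), and CA12, a carbonic anhydrase of the cell membrane (2.54), followed. KLHL41 varied most among them, with 7.76, 7.06, 5.08 and 6.18 on Ti-TMS-PEI at 24 h, against 4.09, 2.73 and 3.25 on Ti-Ref. Its arrays of 4 h lay between 2.6 and 3.51, near the epithelial marker EPCAM (group means of 3.23 and 3.2). IFI44L (2.92 to 3.97), ITGA10 (3.3 to 4.1), WNT7B (4.05 to 4.37) and CCL26 (4.39 to 5.27) lay under all array medians of 4 h. Whether a coating effect could show at such low signals was not tested. For these genes, late means only that the effect was called at 24 h and not at 4 h.

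The late genes that were lower were led by PSG1, a pregnancy-specific glycoprotein, at 4.93, 5.34, 5.94 and 5.75 on Ti-TMS-PEI at 24 h, against 8.77, 8.46 and 8.33 on Ti-Ref. At 4 h it was at 7.52, 7.71, 7.69 and 7.70 on Ti-TMS-PEI, against 7.35, 7.10, 6.96 and 7.12 on Ti-Ref. PSG1 was 8.17-fold lower at 24 h, and at 4 h it was above Ti-Ref in all arrays by 0.52, which did not pass the test (interaction -3.55, SE 0.261, adjusted p = 6.312e-06). GUCY1A2, a subunit of soluble guanylate cyclase (-2.47), DLC1 (-2.45), EFEMP1, the matrix protein fibulin-3 (-2.36), CLDN1, a tight junction claudin (-2.33), and TNFSF15, a TNF family cytokine (-2.32), came next. All 12 late genes named here kept their call with every array left out.

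**Figure D3:**
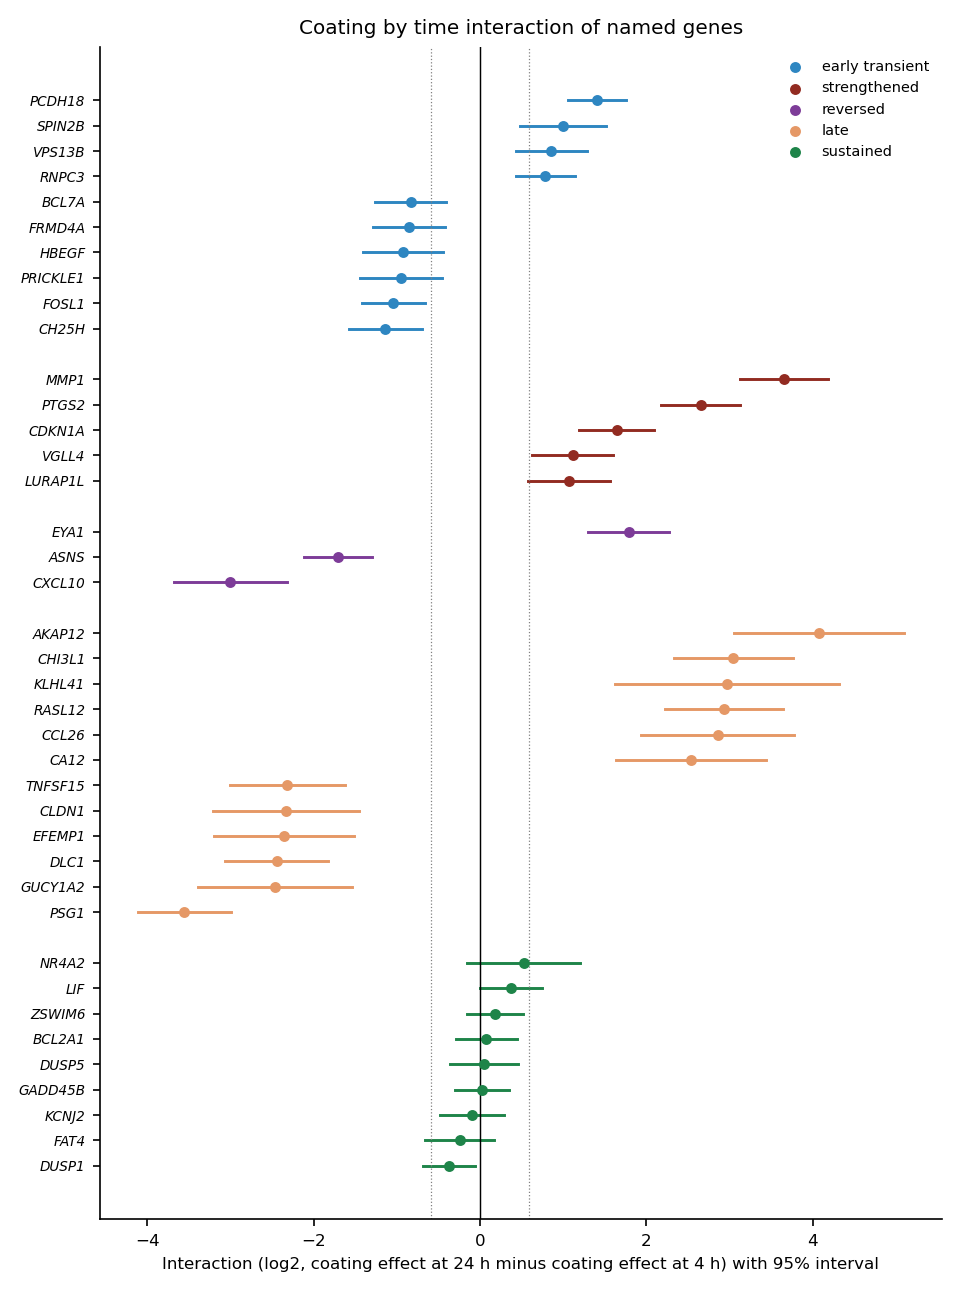
Interaction of named genes of each class (log2, coating effect at 24 h minus coating effect at 4 h) with its 95% interval and dotted lines at 1.5-fold either way. AKAP12 at 4.07 and PSG1 at -3.55 lie farthest from 0 among the late genes, and the intervals of the sustained genes GADD45B, DUSP5 and BCL2A1 include 0.

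Genes of cell division were mostly called lower. Of 40 genes of the G2 and M phases, 28 were called lower (70%, against 2.19% of all transcript clusters), none higher, and all 40 interactions were negative. Their median coating effect was -0.88 at 24 h and -0.05 at 4 h, with a median interaction of -0.86 against 0.0067 over all transcript clusters. AURKB, the kinase of the chromosomal passenger complex, was at 10.58, 10.91, 11.11 and 11.20 on Ti-TMS-PEI at 24 h, against 12.17, 12.06 and 12.02 on Ti-Ref. At 4 h it was at 11.24, 11.14, 11.14 and 11.45 on Ti-TMS-PEI, against 11.13, 11.20, 11.05 and 11.16 on Ti-Ref, so that the surfaces overlapped at 4 h only (interaction -1.24, SE 0.182, adjusted p = 0.001417). CENPE, a kinesin of the kinetochore (-1.10, adjusted p = 0.002629), CCNB1, the mitotic cyclin B1 (-1.24, adjusted p = 0.005585), CCNA2, cyclin A2 (-1.0, adjusted p = 0.003902), and CDC20, an activator of the anaphase-promoting complex (-1.09, adjusted p = 0.004603), had the same course. The count was 17 without Ti-Ref 24 h A, and 32 to 34 with the arrays scaled in other ways. These are bulk samples, in which fewer cells of a kind cannot be told apart from less RNA per cell.

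DNA replication and S phase genes moved less. Of 34 measured, 10 were called lower (29.4%, against 2.19% of all transcript clusters) and none higher, with all 34 negative and a median interaction of -0.66. RRM1, a subunit of ribonucleotide reductase, was at 12.72, 12.88, 12.94 and 13.04 on Ti-TMS-PEI at 24 h, against 13.54, 13.58 and 13.58 on Ti-Ref, while at 4 h the groups overlapped between 13.45 and 13.64 (interaction -0.71, SE 0.129, adjusted p = 0.00553). CDCA7, a target of MYC and E2F (-1.41, adjusted p = 0.005585), and TK1, thymidine kinase (-0.71, adjusted p = 0.0176), were also lower. The replication helicase subunits MCM2, MCM3 and MCM4 lay at -0.47, -0.32 and -0.25 and did not pass. The count of 10 was 5 without Ti-Ref 24 h A or Ti-Ref 24 h B, 6 without any of 5 other arrays (Ti-Ref 4 h D and arrays A and B of Ti-TMS-PEI at either time), 16 without Ti-TMS-PEI 24 h D, and 18 with the arrays centred on their medians or with a trended and robust variance.

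The promoters of CDC20 and CCNB1, chosen from the G2 and M genes after their values had been seen, show what many genes of this group share. Capitals mark CCAAT, the box bound by the factor NF-Y, and TTTGAA, the cell cycle homology region bound by the DREAM and MuvB complexes, on either strand, where they read ATTGG and TTCAAA on the other. The windows start 20 bases before the first match.
CDC20, chr1:43358783-43358980, plus strand: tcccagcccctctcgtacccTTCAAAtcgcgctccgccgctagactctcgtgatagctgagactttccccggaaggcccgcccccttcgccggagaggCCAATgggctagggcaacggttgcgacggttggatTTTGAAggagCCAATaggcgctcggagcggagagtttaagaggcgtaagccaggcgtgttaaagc
CCNB1, chr5:69167043-69167149, plus strand: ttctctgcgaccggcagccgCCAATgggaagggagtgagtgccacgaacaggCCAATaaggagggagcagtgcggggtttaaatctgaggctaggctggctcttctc
CDC20 holds both motifs and CCNB1 only the CCAAT box in this window. CCAAT stood in the 250 bases before the start of 27 of the 34 G2 and M genes with a window (79.4%) and of 20 of 31 S phase genes (64.5%), against 34.6% of all 14250 windows. TTTGAA stood in 19 of 34 G2 and M genes (55.9%) and in 1 of 31 S phase genes, against 10.7% of all. Among all late genes lower on Ti-TMS-PEI, 124 of 261 held CCAAT (47.5%) and 50 held TTTGAA (19.2%). Among the late genes that were higher, 109 of 312 held CCAAT (34.9%) and 9.94% held TTTGAA. Many of the called G2 and M genes stand in the late group as well, so that these shares are not independent of each other.

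**Figure D4:**
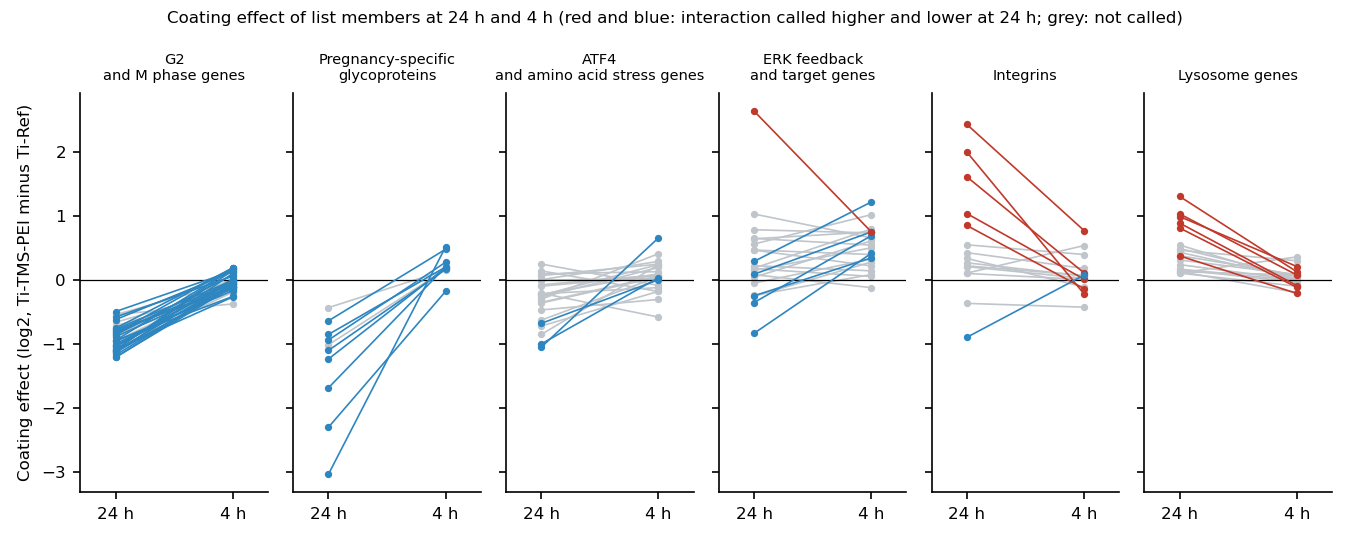
Coating effect (log2, Ti-TMS-PEI minus Ti-Ref) of each measured member of 6 gene lists at 24 h (left) and 4 h (right), with a line joining the effects of 1 gene, red and blue where the interaction was called higher and lower at 24 h and grey where it was not called. All 40 G2 and M genes lie lower at 24 h than at 4 h, with medians of -0.88 and -0.05 at these times. Of 15 integrins, 13 lie higher at 24 h than at 4 h and 2 lower.

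The shares of called members given for the following lists count both directions and stand against 4.78% of all transcript clusters. Members called higher or lower are so by the interaction, and their coating effect at 24 h need not have been called. Growth arrest and p53 target genes gave calls in both directions: 3 of 23 were called higher and 2 lower (21.7%), and the median was 0.02. TP53INP1, a p53-induced autophagy protein (1.95, adjusted p = 0.009015), joined CDKN1A above, whereas MDM2, the p53 ubiquitin ligase (-0.38), GADD45A (-0.71) and GDF15 (0.17) did not pass. CCNG2, an unusual cyclin of arrested cells (1.52), was lost without Ti-Ref 24 h A, Ti-Ref 24 h B or Ti-TMS-PEI 24 h A (adjusted p up to 0.06663). The 2 lower genes, FAS and PLK2 (-0.93), rested on single arrays, with none called without Ti-Ref 4 h A, Ti-Ref 24 h B or Ti-TMS-PEI 24 h B.

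Immediate early genes split. Of 28 measured, 5 were called higher and 3 lower (28.6%), with a median of 0.03, and the members went apart within the same families. EGR1, a zinc finger factor downstream of ERK, was at 15.38, 15.12, 15.16 and 15.66 on Ti-TMS-PEI at 24 h, against 12.22, 12.97 and 12.87 on Ti-Ref. At 4 h EGR1 was at 13.39, 13.56, 13.85 and 13.96 on Ti-TMS-PEI, against 12.49, 13.11, 13.13 and 13.00 on Ti-Ref. EGR1 lay above Ti-Ref in all arrays at both times, with an effect of 2.64 at 24 h and of 0.76 at 4 h (interaction 1.89, SE 0.285, adjusted p = 0.001702). Of the subunits of AP-1, the interaction was called higher for JUNB (0.92, adjusted p = 0.004955) and JUND (1.06, adjusted p = 0.02165). It was called lower for JUN (-0.99, adjusted p = 0.003734) and FOSL1 (-1.04), though the effect of FOSL1 at 24 h was not called. JUN was at 12.03, 11.93, 12.14 and 12.40 on Ti-TMS-PEI at 24 h, against 12.68, 12.85 and 12.82 on Ti-Ref. At 4 h JUN was at 12.45, 12.81, 12.40 and 12.60 on Ti-TMS-PEI, against 12.18, 12.25, 12.22 and 12.28 on Ti-Ref, so that it lay below Ti-Ref at 24 h and above it at 4 h, where only the effect at 24 h was called. FOS lay at 0.74 and FOSB at -0.10, neither past the test. The nuclear receptor NR4A1 was called (1.45, adjusted p = 0.001935) and its relatives NR4A2 (0.52) and NR4A3 (0.23) were not. The 5 higher calls were 3 without Ti-Ref 24 h A or Ti-Ref 24 h B.

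Among 22 genes of ERK feedback and ERK targets, 5 were called lower and 1 higher (27.3%), and their median coating effect was 0.18 at 24 h and 0.53 at 4 h, against a median interaction of -0.34. EPHA2, an ephrin receptor, was lowest. It was at 11.16, 11.29, 11.38 and 11.31 on Ti-TMS-PEI at 24 h, against 12.29, 12.16 and 11.89 on Ti-Ref, and at 11.44, 11.30, 11.49 and 11.28 on Ti-TMS-PEI at 4 h, against 10.95, 10.82, 11.07 and 10.99 on Ti-Ref. The surfaces of EPHA2 changed places without overlap (interaction -1.25, SE 0.152, adjusted p = 0.0003309), though its effect at 4 h of 0.42 was not called. SPRY2 (-0.66) and the ETS factor ETV5 (-0.59, adjusted p = 0.03952) were called beside FOSL1, HBEGF and EPHA2. SPRY4 (-0.46) and the ERK phosphatase DUSP6 (-0.61, adjusted p = 0.09736) were not, with effects of 0.57 and 0.19 at 24 h and of 1.02 and 0.80 at 4 h. DUSP6 passed under a trended and robust variance (adjusted p = 0.01848), with the arrays centred (adjusted p = 0.04698) and with them scaled (adjusted p = 0.03202). The 5 lower calls were 2 without Ti-Ref 4 h A, Ti-Ref 24 h A or Ti-Ref 24 h B and 3 without Ti-Ref 4 h B, Ti-Ref 24 h C, Ti-TMS-PEI 24 h A, Ti-TMS-PEI 24 h B or any of the 4 arrays of Ti-TMS-PEI at 4 h.

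The 10 MAP kinase phosphatases held 1 call each way (20%), with a median of 0. DUSP7, which acts on ERK, was lower (-1.06, adjusted p = 0.004705), and DUSP10, which acts on JNK and p38, was higher (1.33, adjusted p = 0.02881), and the call of DUSP10 was lost without any of 7 arrays (adjusted p up to 0.07617).

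Of 19 genes of the cAMP response, 3 were called higher and 2 lower (26.3%), with medians of 0.26 at 24 h and 0.25 at 4 h. The interaction was higher for AKAP12, GEM, a small GTPase (1.64, adjusted p = 0.007507), and NR4A1. It was lower for PDE4B and for PTGER4, the prostaglandin E2 receptor EP4 (-1.23, adjusted p = 0.01041). The coating effect of PDE4B was called at 4 h only, where it was higher on Ti-TMS-PEI. PPARGC1A (0.67) and SIK1 (0.30) did not pass.

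Of 16 prostaglandin genes, 2 were called higher and 2 lower (25%). The enzymes PTGS2 and PLA2G4A, the cytosolic phospholipase that frees arachidonic acid (1.78, SE 0.238, adjusted p = 0.0007325), were higher at 24 h, while the receptors PTGER4 and PTGFR (-1.3, adjusted p = 0.001702) were lower, and the other 12 were not called. PLA2G4A was at 12.25, 12.59, 12.34 and 12.44 on Ti-TMS-PEI at 24 h, against 10.66, 10.04 and 10.72 on Ti-Ref, and at 10.14, 9.83, 10.03 and 9.93 on Ti-TMS-PEI at 4 h, against 10.26, 9.65, 9.68 and 9.75 on Ti-Ref, where the groups overlapped.

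Of 23 cytokines and chemokines, CCL26 was called higher and CXCL10, CCL2 and CXCL1 lower (17.4%), with a median interaction of -0.15 and a median effect of 0.27 at 4 h. CCL2, which draws monocytes, was at 9.92, 10.30, 10.96 and 10.28 on Ti-TMS-PEI at 24 h, against 11.83, 11.99 and 11.74 on Ti-Ref, and at 15.05, 15.16, 15.37 and 15.50 on Ti-TMS-PEI at 4 h, against 14.91, 15.07, 15.03 and 14.97 on Ti-Ref (interaction -1.76, SE 0.251, adjusted p = 0.001135). CCL2 was lower in all arrays at 24 h, and its groups overlapped at 4 h. The neutrophil chemokine CXCL1 (-1.25, adjusted p = 0.026) was lost without any of 7 arrays (adjusted p up to 0.08117). CXCL8 (-1.3, adjusted p = 0.07626) and CCL20 (-1.13) did not pass, and IL6 (-0.06) and IL11 (0.00) lay near 0. Of 14 NF-kappaB feedback genes, PTX3, a secreted pentraxin (-1.70, adjusted p = 0.006529), and TNFAIP3 (-0.86) were called lower (14.3%), with TNFAIP3 lost without any of 9 arrays (adjusted p up to 0.08702), and NFKBIA (0.19) was not called.

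Interferon-stimulated genes gave 3 lower calls of 19 (15.8%) and a median of -0.27. MX1, an antiviral GTPase, was at 10.25, 10.22, 9.15 and 9.66 on Ti-TMS-PEI at 24 h, against 12.55, 10.99 and 11.20 on Ti-Ref (interaction -2.07, SE 0.472, adjusted p = 0.01889). OAS2, an oligoadenylate synthetase (-1.45, adjusted p = 0.01608), and IFI44L (-1.96, adjusted p = 0.01962) were the others. For all 3 genes Ti-Ref 24 h A was the highest array, and IFI44L was at 4.99, 5.57, 5.17 and 5.47 on Ti-TMS-PEI at 24 h, against 7.94, 6.18 and 6.56 on Ti-Ref. The calls of these 3 were kept without that array. With the letters A to D as a replicate block within each time, those of OAS2 (adjusted p = 0.08773) and IFI44L (adjusted p = 0.08718) were lost. IFIT1 (0.16), IFIT2 (0.27) and ISG15 (0.01) lay near 0 or above it. The promoter of IFI44L is shown with the interferon response element in capitals, as in CXCL10 above, and holds the element more than once.
IFI44L, chr1:78620264-78620447, plus strand: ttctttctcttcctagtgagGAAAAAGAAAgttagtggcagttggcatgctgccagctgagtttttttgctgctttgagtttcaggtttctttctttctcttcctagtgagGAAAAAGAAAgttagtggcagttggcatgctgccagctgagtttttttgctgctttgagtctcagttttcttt
The element stood in 10 of the 14 interferon-stimulated genes with a window (71.4%), and in 2.3% of the late genes that were lower, close to the 2.65% of all.

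All 10 pregnancy-specific glycoproteins, secreted proteins of the CEA family known from the placenta, had negative interactions, and 8 were called lower (80%), with a median of -1.24. Their median effect was -1.05 at 24 h and 0.20 at 4 h. PSG5 was at 8.16, 8.57, 8.43 and 8.35 on Ti-TMS-PEI at 24 h, against 11.04, 10.58 and 10.40 on Ti-Ref, and at 9.85, 9.59, 9.72 and 9.53 on Ti-TMS-PEI at 4 h, against 10.00, 9.77, 9.66 and 9.95 on Ti-Ref (interaction -2.12, SE 0.205, adjusted p = 0.0001117). PSG2 (-0.59) and PSG3 (-1.18, adjusted p = 0.05246) did not pass. The family's sequences are nearly alike, so that the probes of 1 member can bind transcripts of others and the 8 calls cannot be taken as 8 separate genes. The count stayed between 7 and 9 with 1 array left out.

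Adhesion genes moved by member. Of 15 integrin subunits 5 were called higher and 1 lower (40%), with 13 interactions positive, 2 negative and a median of 0.21. ITGA2, a collagen receptor subunit, was at 12.56, 12.68, 12.32 and 12.14 on Ti-TMS-PEI at 24 h, against 10.04, 10.04 and 9.89 on Ti-Ref, and at 10.56, 10.56, 10.80 and 11.29 on Ti-TMS-PEI at 4 h, against 9.75, 10.02, 10.26 and 10.07 on Ti-Ref. It was higher in all arrays at both times, and more so at 24 h (interaction 1.66, SE 0.243, adjusted p = 0.001411). The collagen receptor subunits ITGA10 (1.5, adjusted p = 0.004893) and ITGA11 (1.02, adjusted p = 0.01477), with ITGA8 (2.22, adjusted p = 0.02094) and ITGB8 (0.99, adjusted p = 0.01202), were also higher. ITGB3, the beta subunit of the vitronectin receptor, was lower, at 10.83, 11.16, 10.75 and 10.55 on Ti-TMS-PEI at 24 h, against 11.99, 11.61 and 11.54 on Ti-Ref (interaction -0.97, adjusted p = 0.01382). ITGB1 (0.18), ITGA5 (0.25) and ITGAV (0.09), which form fibronectin and vitronectin receptors, were not called. Of 17 cadherins and protocadherins, the interaction was called higher for PCDH18 and lower for CDH2, N-cadherin (-1.65), a share of 11.8%. The coating effect of PCDH18 was negative at 4 h and not called at 24 h. The call of CDH2 was lost without Ti-Ref 24 h A, Ti-Ref 24 h B or Ti-TMS-PEI 24 h A (adjusted p up to 0.07987).

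Of 24 matrix proteases and their inhibitors, MMP1, MMP14 and PLAT were called higher and MMP3 lower (16.7%). MMP14, a membrane-bound collagenase, was at 14.73, 14.56, 14.53 and 14.65 on Ti-TMS-PEI at 24 h, against 13.00, 12.87 and 13.19 on Ti-Ref, with a smaller difference of 0.36 at 4 h (interaction 1.24, SE 0.14, adjusted p = 0.0002232). PLAT is the tissue plasminogen activator (1.02, adjusted p = 0.003562). MMP3, stromelysin (-0.78, adjusted p = 0.02174), was lost without Ti-Ref 24 h A (adjusted p = 0.05912). MMP2 (0.27), TIMP1 (0.21) and TIMP3 (-0.31) did not pass. Of 19 collagen chains only COL6A3 was called (0.64), a share of 5.26% that is near the background, and this was lost without any of 4 arrays (adjusted p up to 0.06671). The chains of collagen I, COL1A1 (0.25) and COL1A2 (0.18), did not pass.

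The list of YAP and TEAD target genes also holds YAP1, the regulator itself. Of its 20 measured genes, 5 were called lower and 1, YAP1, higher (30%), with a median of -0.26. The matricellular protein CCN1 (-0.86, adjusted p = 0.01802), the transmembrane protein CRIM1 (-0.98, adjusted p = 0.002599), the LIM protein AJUBA (-1.17, adjusted p = 0.02324), FJX1 (-0.71) and DLC1 were lower, while CCN2 (-0.35), AXL (-0.35) and ANKRD1 (-0.14) did not pass. YAP1 itself was higher (0.63, adjusted p = 0.01846), below the 1.5-fold limit with the arrays centred (0.54) and without Ti-Ref 4 h C or Ti-TMS-PEI 4 h C (0.57 at the lowest). CCN1 was lost without Ti-Ref 24 h B (adjusted p = 0.05516), and 3 lower calls were left without that array, Ti-Ref 24 h A or Ti-TMS-PEI 24 h B. Actin and SRF target genes had 1 call each way of 20 (10%), MYLK, myosin light chain kinase (1.25, adjusted p = 0.004836), and CALD1, caldesmon (-0.84), with CALD1 lost without any of 8 arrays (adjusted p up to 0.06974). ACTB (-0.12), VCL (-0.01) and ZYX (0.01) lay near 0.

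Feedback genes of TGF-beta and BMP signalling were called higher in 4 of 21 cases and lower in none (19%), with a median of 0.40. ID2, an inhibitor of DNA binding induced by BMPs, was at 12.08, 12.03, 11.32 and 11.68 on Ti-TMS-PEI at 24 h, against 10.38, 10.24 and 10.50 on Ti-Ref. At 4 h ID2 was at 6.99, 7.03, 7.15 and 6.90 on Ti-TMS-PEI, against 7.46, 7.50, 7.78 and 7.60 on Ti-Ref. The surfaces changed places, but the effect of -0.57 at 4 h was not called (adjusted p = 0.1301), while the interaction was 1.97 (SE 0.216, adjusted p = 0.0001785). ID3 (1.3, adjusted p = 0.0007325), ID1 (1.09, adjusted p = 0.003938) and the cytokine TGFB1 (0.80, adjusted p = 0.009779) followed, and SMAD6 (0.22), SMAD7 (0.64) and ID4 (0.27) did not pass. These 4 calls were kept under each fit and scaling tried and with every array left out. Of 23 WNT genes, WNT7B was higher (1.17) and DKK1, a WNT antagonist, lower (-0.72), a share of 8.7%. The call of WNT7B was lost without Ti-Ref 24 h B (adjusted p = 0.05288), and that of DKK1 without any of 8 arrays (adjusted p up to 0.08697). Of 14 NOTCH pathway genes only HEY1 was called (1.15), a share of 7.14%, and this was lost without any of 10 arrays (adjusted p up to 0.09142).

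Genes of osteoblast differentiation and mineralization gave 3 higher calls and 1 lower of 24 (16.7%), with a median of 0.10. TNFRSF11B, osteoprotegerin (0.69, adjusted p = 0.00544), was higher, FGF5 was lower (-0.74, adjusted p = 0.01503), and ANKH, a pyrophosphate exporter (0.63), was lost without Ti-Ref 4 h C or Ti-Ref 24 h A (adjusted p up to 0.05614). HEY1 was the third higher call. The list had 1 higher call without Ti-Ref 24 h A. RUNX2 (-0.27), ALPL (0.10), SPP1 (0.53) and SPARC (0.10) did not pass, and SP7, IBSP and DMP1 did not either.

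Lysosome genes were called higher in 6 of 19 cases (31.6%), lower in none, and 18 of the 19 were positive, with a median of 0.33. GPNMB, a glycoprotein of lysosomes, was at 14.98, 14.88, 14.69 and 14.85 on Ti-TMS-PEI at 24 h, against 13.49, 13.41 and 13.72 on Ti-Ref, and the groups overlapped at 4 h (interaction 1.18, SE 0.143, adjusted p = 0.000319). NPC1, a cholesterol exporter (0.98, adjusted p = 0.001548), SQSTM1, an autophagy receptor (0.96, adjusted p = 0.001579), CTSD, a protease (0.78, adjusted p = 0.002823), PSAP, the saposin precursor (0.93, adjusted p = 0.005585), and MCOLN1, a calcium channel (0.59, adjusted p = 0.02555), were the others. TFEB, a regulator of these genes, lay at 0.20 and did not pass.

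Among genes of stress and metabolism, 3 of 23 ATF4 and amino acid stress genes were called lower and none higher (13%), with 20 negative and a median of -0.32. Beside ASNS these were PSAT1, of serine synthesis (-1.03, adjusted p = 0.001075), and MTHFD2, of mitochondrial folate metabolism (-0.68, adjusted p = 0.009075). ATF4 itself (-0.17), DDIT3 (-0.04) and ATF3 (0.32) did not pass. The element TGATGNAA stood in the windows of 3 of 18 genes of this list (16.7%). PSAT1 was at 13.35, 13.28, 13.58 and 13.37 on Ti-TMS-PEI at 24 h, against 14.38, 14.50 and 14.29 on Ti-Ref, and overlapped at 4 h between 13.27 and 13.52. Of 19 ribosome biogenesis genes 18 were negative, with a median of -0.38, but only UTP4 (-0.85, adjusted p = 0.003103) and RRS1 (-0.88, adjusted p = 0.01408) were called (10.5%).

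Of 24 hypoxia and glycolysis genes CA12, NDRG1 (1.75, adjusted p = 0.005617) and the mitophagy receptor BNIP3 (0.64) were called higher (12.5%), the last lost without Ti-Ref 24 h A (adjusted p = 0.05694), while PGK1 (-0.06), LDHA (0.09) and VEGFA (0.42) did not pass. NRF2 targets had 3 higher calls of 18 (16.7%). The aldo-keto reductase AKR1C2 (1.57, adjusted p = 0.01041) kept its call, that of AKR1C3 (1.55) was lost without Ti-Ref 24 h A or B (adjusted p up to 0.06481) and that of PGD (0.64) without Ti-Ref 24 h A or Ti-TMS-PEI 24 h B (adjusted p up to 0.05051), and NQO1 (0.37) and HMOX1 (0.22) did not pass. The AKR1C genes are near copies of each other, so that their signals may be shared. Of 13 heat shock genes HSPB8, a small chaperone (1.42, SE 0.139, adjusted p = 0.0001117), and HSPA1A (0.92, adjusted p = 0.01125) were higher (15.4%). HSPB8 was at 12.47, 12.77, 12.65 and 12.50 on Ti-TMS-PEI at 24 h, against 11.10, 10.91 and 11.01 on Ti-Ref. None of 18 ER folding genes and none of 10 metallothioneins was called. The chaperone cofactor DNAJB11 (-0.58, adjusted p = 0.02985) missed the fold limit. With the arrays centred, DNAJB11 (-0.67, adjusted p = 0.01507) and MANF (-0.60, adjusted p = 0.03263) were called lower, and 1 or 2 ER folding genes were called lower without any of 7 arrays. MT1M lay at -0.19. Of 19 cholesterol synthesis genes only HSD17B7 was called (1.31), a share of 5.26% that is near the background, and 16 were positive with a median of 0.24. This call was lost without any of 12 arrays (adjusted p up to 0.1226).

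The remaining lists held few calls. Of 19 potassium channel subunits 2 were called each way (21.1%), of which KCNK6 (1.04, adjusted p = 0.002043) was kept with every array left out, and KCNK1 (1.64), KCNQ5 (-0.84) and KCNG1 (-1.01) were not (adjusted p up to 0.1274, 0.06055 and 0.08637). Of 19 semaphorins, plexins and neuropilins, SEMA6D was higher (0.93) and SEMA7A (-1.19) and SEMA4B lower (15.8%), none of them kept with every array left out (adjusted p up to 0.05217, 0.102 and 0.0925). Of 17 clock genes 3 were called (17.6%). BHLHE40, a transcriptional repressor, was higher, at 11.86, 11.79, 10.95 and 11.07 on Ti-TMS-PEI at 24 h, against 8.95, 9.12 and 9.98 on Ti-Ref (interaction 1.68, SE 0.351, adjusted p = 0.01243). CRY1 (-1.19) was lower and lost without Ti-Ref 24 h A (adjusted p = 0.05526), as was CLOCK (-0.59) without any of 8 arrays (adjusted p up to 0.09387).

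**Figure D5:**
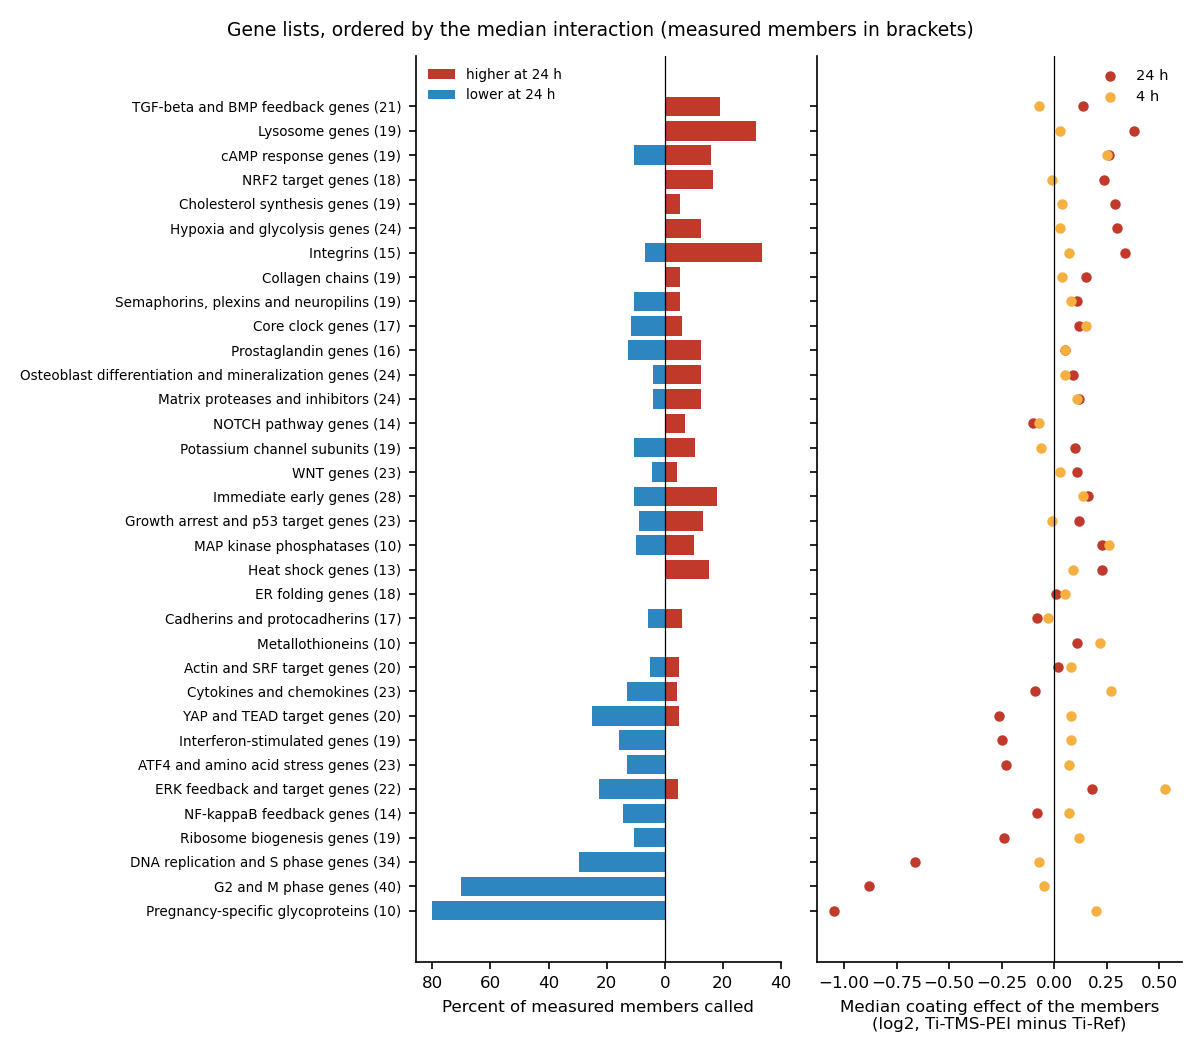
Left, percent of the measured members of each of the 34 gene lists with an interaction called higher (red, right of 0) or lower (blue, left of 0) at 24 h. Right, the median coating effect of the members (log2, Ti-TMS-PEI minus Ti-Ref) at 24 h (red) and 4 h (orange). The lists run from the highest median interaction at the top (TGF-beta and BMP feedback genes, 0.40) to the lowest at the bottom (pregnancy-specific glycoproteins, -1.24).

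The 14 sustained transcript clusters, 12 of them named, were higher on Ti-TMS-PEI at both times in 11 cases and lower in 3. DUSP1, DUSP5, PHLDA1 and LIF among them also stand in the lists of ERK targets or MAP kinase phosphatases. DUSP1, a phosphatase of p38, JNK and ERK, was at 13.38, 13.53, 13.12 and 13.34 on Ti-TMS-PEI at 24 h, against 12.62, 12.69 and 12.77 on Ti-Ref, and at 13.01, 12.98, 13.09 and 13.11 on Ti-TMS-PEI at 4 h, against 11.88, 12.03, 12.18 and 12.02 on Ti-Ref. The groups lay apart at both times, and the difference of the effects was -0.37 (95% interval -0.69 to -0.06, adjusted p = 0.1761). The phosphatase DUSP5 (0.79 at 24 h and 0.74 at 4 h), PHLDA1 (0.65 and 0.76 at these times), the urokinase receptor PLAUR (0.90 and 1.04), the aggrecanase ADAMTS4 (0.86 and 0.68), ZSWIM6 (0.83 and 0.65) and BCL2A1, an inhibitor of apoptosis (0.88 and 0.80), were called higher at both times too.

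LIF, a cytokine of the IL-6 family, was at 10.80, 11.15, 11.15 and 10.92 on Ti-TMS-PEI at 24 h, against 9.92, 10.02 and 9.97 on Ti-Ref, and at 14.03, 13.84, 13.98 and 14.16 on Ti-TMS-PEI at 4 h, against 13.25, 13.50, 13.51 and 13.10 on Ti-Ref (difference of the effects 0.37, 95% interval 0.00 to 0.74). NR4A2, an orphan nuclear receptor, was at 7.82, 7.87, 7.42 and 7.31 on Ti-TMS-PEI at 24 h, against 6.07, 5.16 and 6.25 on Ti-Ref, and at 6.94, 6.91, 7.29 and 7.15 on Ti-TMS-PEI at 4 h, against 5.8, 6.04, 6.03 and 5.40 on Ti-Ref. For NR4A2 the interval of the difference was wide, from -0.16 to 1.20. KCNJ2, an inward rectifier potassium channel, was lower at both times, at 9.07, 9.14, 9.10 and 9.38 on Ti-TMS-PEI at 24 h, against 10.41, 10.28 and 10.34 on Ti-Ref, and at 6.51, 6.86, 6.56 and 6.51 on Ti-TMS-PEI at 4 h, against 7.37, 7.71, 7.76 and 7.90 on Ti-Ref. Its effects of -1.17 and -1.08 differed by -0.10 (95% interval -0.48 to 0.29). GADD45B, a growth arrest gene (-0.71 at 24 h and -0.73 at 4 h), and FAT4, an atypical cadherin (-1.01 and -0.77 at these times), were the other lower ones. For 6 of the 14 the 95% interval of the difference lay wholly within 1.5-fold either way, so that the effects of the other 8 may differ by more. A further 642 transcript clusters were called at 24 h only and 22 at 4 h only with no called interaction, and for these a difference between the times was not shown. The class held 5 to 16 transcript clusters with 1 array left out (5 without Ti-TMS-PEI 4 h B or D) and 4 with each time fitted alone (NR4A2, DUSP1, KCNJ2 and PLAUR).

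The promoter of DUSP1, a single sustained gene, is shown because it holds a cAMP response element, TGACGTCA, in capitals. How many sustained genes hold this element was not counted, so no link with sustained effects can be read from it. This element stood in 2.34% of all windows, and in 3.21% of the late genes that were higher and 4.21% of those that were lower.
DUSP1, chr5:172771196-172771340, minus strand: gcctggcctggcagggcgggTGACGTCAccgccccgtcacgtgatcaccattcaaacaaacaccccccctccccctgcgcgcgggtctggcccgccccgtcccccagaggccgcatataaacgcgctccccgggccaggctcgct

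Of 14 markers of MG-63 cells, osteoblasts and mesenchymal cells none had a called interaction, and their mean level ran from 9.69 to 9.85 on Ti-TMS-PEI and 9.65 to 9.79 on Ti-Ref at 24 h, and from 9.11 to 9.19 on Ti-TMS-PEI and 9.15 to 9.20 on Ti-Ref at 4 h. Epithelial, endothelial, neural and muscle markers had no called interaction either. Of 10 blood markers, CD68, which is also a lysosomal protein, was called higher (0.85). The array medians were 6.77 to 6.79 on Ti-TMS-PEI and 6.71 to 6.74 on Ti-Ref at 24 h, and 5.79 to 5.83 on Ti-TMS-PEI and 5.84 to 5.86 on Ti-Ref at 4 h, and the split of higher and lower calls moved when the arrays were centred, as given above.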

How the data were processed

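Transcripts of 15 MG-63 cultures were measured on Clariom S arrays (GeneChip WT PLUS). The deposited log2 values were made by the authors with SST-RMA in the Transcriptome Analysis Console, which includes quantile normalisation. Whether both times were normalised together is not given in the sources used here. The methods describe the replicates both as independent experiments and as technical groups, so p-values measure the spread between these arrays only. Their number limits the precision, and no depth applies.

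Group means were fitted with limma 3.58.1 in R 4.3.3 (lmFit, eBayes, 11 residual degrees of freedom), and the interaction and both coating effects were taken from that fit. Calls needed a Benjamini-Hochberg adjusted p under 0.05 over 21448 transcript clusters and a change over 1.5-fold. Named were up to 6 genes per class and direction, the 9 genes the study lists at 4 h, and up to 4 called members of each of 34 gene lists. Any others were chosen after their values were seen. Lists (and 6 marker lists) were described by counts without a set test, and list genes that the table does not name were not analysed here. The members, lists and rules were chosen with earlier results of these data known. The script was tested on simulated data. Promoter windows came from RefSeq (GRCh38.p14) and matched 14250 of 17687 genes by symbol. Alternatives were other variance models, array weights, scalings, filters, blocks and arrays left out. No columns of per-sample values were left unused.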

Additional observations from a re-analysis of the deposited data

Results flagged for a closer look

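Among 423 groups of 4 arrays for the 141 named genes, 21 held an array that stood far from the other 3, about as many as the 1 in 20 that chance gives. The Ti-Ref group of 24 h, with 3 arrays, was not looked at in this way. At 24 h these were Ti-TMS-PEI A for GADD45B (8.98) and DUSP6 (11.97), Ti-TMS-PEI C for CXCL1 (5.66) and SEMA6D (11.75), and Ti-TMS-PEI D for WNT7B (8.30) and MTHFD2 (13.97). On Ti-TMS-PEI at 4 h they were array A for PSG1 (7.52), array B for KCNJ2 (6.86), LRIG3 (9.69) and GPNMB (13.19), array C for MTHFD2 (14.21), and array D for BCL7A (5.99), CDKN1A (13.58) and CXCL10 (7.15). On Ti-Ref at 4 h they were array A for AKAP12 (6.42), CENPF (12.52), PLA2G4A (10.26) and NDRG1 (14.17), array C for GADD45B (9.37) and ADAMTS5 (8.52), and array D for ITGB8 (8.16).

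The effect of the coating differed between 24 h and 4 h, by the limma test of the difference itself, for 1026 transcript clusters, and ran in called opposite directions for EYA1 (interaction 1.79), CXCL10 (-3.00) and ASNS (-1.71).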

How the results depend on the processing

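Calls of the interaction, 557 higher and 469 lower at 24 h, became 254 and 156 at over 2-fold, 210 and 144 at an adjusted p under 0.01, and lay between 367 and 590 and between 282 and 541 with 1 array left out (the lowest totals were 681 without Ti-Ref 24 h B and 685 without Ti-Ref 24 h A). Centring on the median gave 758 lower calls. Residuals of arrays with the same letter (A to D) correlated at -0.0711 to 0.0462 between surfaces and at 0.0129 to 0.0621 between times. Those with different letters correlated at -0.105 to 0.0958 and at -0.0906 to 0.058. With so few arrays per group these values cannot exclude a pairing by letter. With the letter as a replicate block within each time, 317 higher and 261 lower calls were left, and the block over both times gave 968 calls in all. The cause of these shifts was not tested.

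The 760 late transcript clusters were 282 at over 2-fold, 327 at adjusted p under 0.01 and 536 to 868 with 1 array left out. The 240 called at neither time were 124, 25 and 102 to 284 under the same changes, and 60 with the block within time. The small classes moved more. Early transient (18) became 33 with a trended and robust variance, 9 with array weights per time, 2 with the block within time, 1 at over 2-fold, 2 at adjusted p under 0.01, 3 with each time fitted alone, 36 with an unadjusted p at each time and 5 to 19 with 1 array left out. Strengthened (5) became, in that order, 9, 3, 1, 2, 0, 0, 10 and 1 to 6. Reversed (3) became 0 with weights per time, weights per array, the block within time, adjusted p under 0.01 or each time fitted alone, 1 at over 2-fold, 17 with an unadjusted p and 0 to 3 with 1 array left out. Sustained (14) became 7 with weights per time, 9 with weights per array, 2 with the block within time, 2 at over 2-fold, 5 at adjusted p under 0.01, 4 with each time fitted alone, 31 with an unadjusted p and 5 to 16 with 1 array left out.

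Of the 122 named genes with a called interaction, 83 kept the call in every alternative with all arrays and 87 with every array left out, and none changed sign. Some that kept it with every array left out lost it with the block within time. Beside RNPC3, OAS2 and IFI44L these included GEM (adjusted p = 0.05277), PTGER4 (0.07558), TK1 (0.0592), ITGB8 (0.05557), NDRG1 (0.05934) and BHLHE40 (0.05856). The median of the NOTCH list (0.07) was -0.02 with the arrays centred, -0.01 with them scaled, -0.04 with the block within time, and -0.04 (without Ti-TMS-PEI 24 h D; 0.00 without Ti-Ref 4 h C) to 0.16 with 1 array left out. That of the potassium channels (0.05) was -0.01 after quantile normalisation, -0.04 centred, -0.05 scaled, -0.01 with the block within time, -0.02 with the block over both times, and -0.01 (without Ti-TMS-PEI 24 h D) to 0.13 with 1 array left out. Other lists with medians near 0 also crossed it, among them the immediate early genes (0.03, and -0.06 centred or without Ti-Ref 4 h C), WNT genes (0.04, and -0.06 scaled), growth arrest genes (0.02, and -0.07 centred), cadherins (-0.07, and 0.08 without Ti-TMS-PEI 24 h A) and ER folding genes (-0.01, and 0.02 without Ti-Ref 4 h A).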
